A study of Homo sapiens with 6 samples.

Results

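The 10 genes described here encode 6 AP-1 subunits (JUN, JUNB, JUND, FOS, FOSL1 and FOSL2), the related factor ATF3, the zinc finger factor EGR1, the immediate-early protein IER2 and the oncogenic factor MYC. They were chosen by name, with earlier results of these data known. All 10 had a row in the table of 15761 genes and passed the filter on low counts that left 12449 genes for testing. RNA had been sequenced from SK-MES-1 cells, an established human lung squamous carcinoma line labelled wild type, in 3 control cultures without exosomes and 3 cultures given exosomes at 20 µg/ml for 72 h. Exosomes are small vesicles that cells release. Those used here were taken from fibroblasts of lungs with IPF (idiopathic pulmonary fibrosis), a disease that scars the lung, and the design compares the tumour cells' RNA with and without them. Only 1 line was used, and no group received vesicles of another source, so an effect of IPF vesicles and one of any vesicle preparation cannot be told apart.

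AP-1 is a dimer of basic leucine zipper proteins, in which a JUN subunit pairs with itself, a FOS subunit or an ATF subunit and binds a short DNA element. Several of its genes, with EGR1, IER2 and MYC, are immediate-early genes: growth factors and stress switch them on through MAP kinases before any new protein is made, and their messages decay quickly. In squamous epithelium AP-1 is known for roles in growth, migration and differentiation, and MYC, paired with MAX, drives ribosome production and the cell cycle. All samples here were taken at 72 h, so a lasting level of such genes and a recent burst cannot be told apart.

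Library totals were 11346639 to 13334508 counts, with 14294 to 14540 genes detected. Nothing in the labels says whether the 3 cultures of a group were grown apart, and the p-values cover only the variation among these libraries, which may be technical. In these bulk samples, more cells expressing a gene and more RNA per cell cannot be told apart. Control library 3 stood apart from the other controls, with a chi-square per gene of 16.2 and 12.1 against 2.31 between those 2, and exosome library 3 likewise (9.71 and 7.41 against 3.18). Of 8 matched squamous markers, KRT5, KRT6A, KRT14 and DSC3 were under 1 CPM (counts scaled to library totals of equal size) and TP63 averaged 1.51 CPM in control, whereas the simple epithelial keratins KRT8 and KRT18 averaged 2340 and 997.0 CPM there. The other squamous markers were EGFR (463 CPM in control), SOX2 (4.34) and KRT17 (3.47), and the 8 summed to 455 to 507 CPM in control and 432 to 457 CPM with exosomes, nearly all of it EGFR. The summed level of 7 fibroblast markers was 104 to 114 CPM in control and 48.9 to 54.2 CPM with exosomes. Most of it was COL1A1 (60.2 CPM in control and 30.6 with exosomes on average) and COL1A2 (40.8 and 13.6). COL3A1, PDGFRA, THY1 and FAP were under 1 CPM in both groups. The sum of 5 immune markers, mostly CD14 and CD68, was 164 to 195 CPM in control and 256 to 277 CPM with exosomes, with PTPRC and CD3E under 1 CPM. Heat shock and handling stress genes, which share inducers with immediate-early genes, summed to 5972 to 6602 CPM in control and 5798 to 6231 CPM with exosomes, most of it HSP90AA1 and HSPA8. Of these 11 genes, 3 passed as higher (BAG3, ATF4 and HSPB1) and 2 as lower (HSPH1 and HSP90AA1), and corrected 0 and 4. Over all tested genes, 25.6% passed as higher and 26.1% as lower, and corrected 18.2% and 17.3%. RNA carried in by the vesicles was not measured separately, and its part in the results was not tested.

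With exosomes, 8 of the 10 genes rose, by 1.16-fold (FOSL2) to 2.63-fold (JUNB), and none passed the test as lower (edgeR quasi-likelihood test, adjusted p under 0.05; 0 lower at an unadjusted p under 0.05 and by DESeq2 or limma-voom). JUND (1.31-fold) and ATF3 (0.806-fold) did not pass. Of all tested genes, 25.6% were called higher and 26.1% lower, and the median log2 fold change was 0.55 over the 10 genes against -0.0042 over all. In 9 of the 10, every exosome library lay above every control library in CPM, which held for 35.0% of all tested genes (59.5% did not overlap in either direction). CPM uses library totals alone, and with the scaling factors used in the test (TMM) the JUND groups overlapped. These counts and shares must be read beside a trend across the whole table: fold changes rose with GC content (Spearman correlation 0.62 across genes, which are not independent replicates), and 9 of the 10 genes lie above the middle of the tested genes in GC content. Fold changes also fell with transcript length (Spearman correlation -0.39), and all of the 10 genes but FOSL2 lie below the middle of the tested genes in length. With the trend of GC content and transcript length removed in each library, 5 of the 10 were higher (JUNB, IER2, MYC, JUN and FOSL2), against 18.2% of all tested genes, and 1 was lower (JUND), against 17.3%. Corrected levels did not overlap in 7 of the 10 (46.9% of all tested genes): 6 lay higher with exosomes (those 5 and EGR1; 24.0% of all genes) and JUND lay lower (22.9%). Values with that trend removed are called corrected below.

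**Figure D1:**
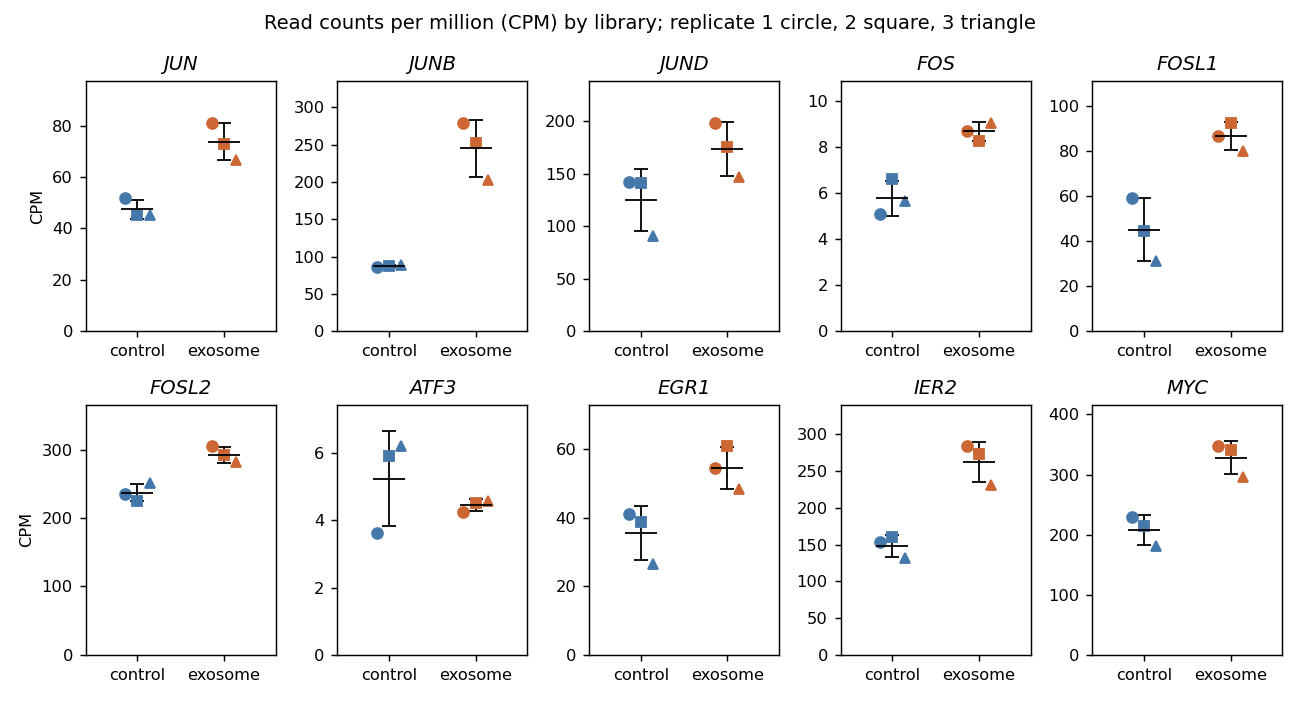
Each panel shows 1 gene: the vertical axis is CPM from 0, points are the 3 control and 3 exosome libraries, and lines give the mean and SD. The exosome points lie above the control points in every panel but that of ATF3, whose control libraries enclose all exosome libraries.

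**Figure D2:**
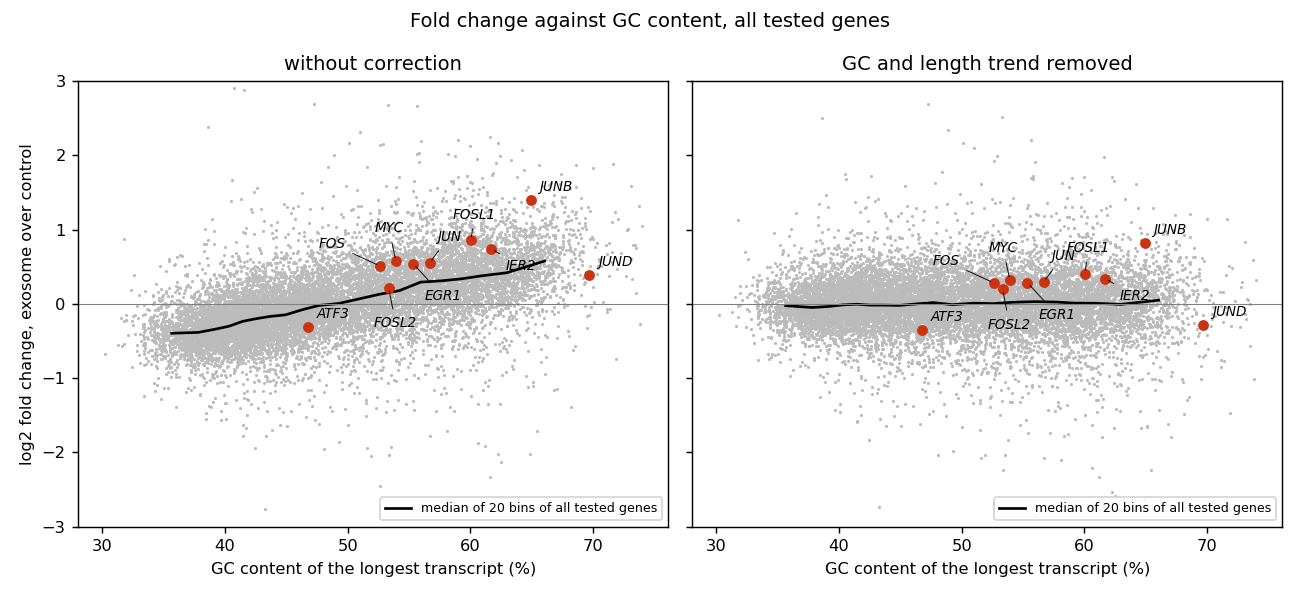
Log2 fold change of exosome over control (vertical) against the GC content of the longest transcript (horizontal) for the 12449 tested genes, with the 10 genes in red and the median of 20 GC bins as a black line. On the left the line climbs with GC content. JUND, at higher GC content than the median of the last bin, where the line ends, lies below that end. On the right, with the trend removed, the line is flat, JUNB stays high and JUND falls below 0. Outside the axis lie 2 genes on the left and 4 on the right.

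RefSeq gave a start-site window for 8 of the 10 (not FOSL1 or MYC), and the 250 bases before the start were searched on both strands for the CArG box bound by serum response factor, the AP-1 element (TGANTCA), the cyclic AMP response element (TGACGTCA), the core of that element (TGACG, which the full element contains), the TATA box (TATAAA), the E-box (CACGTG) and the GC box (GGGCGG). The core was found in 7 of the 8 genes (all but ATF3) and in 21.2% of all 35116 windows. The CArG box was found in EGR1 alone, at 105 and 83 bases before the start, and in 1.16% of all windows. The full element was found in JUND alone (1.65% of windows), the TATA box letters in JUNB, FOS and ATF3 (10.7%), and the GC box in 6 of the 8 genes (42.6%). The TATAAA matches lay 31 (JUNB), 33 (FOS) and 230 (ATF3) bases before the start. The AP-1 element and the E-box were in none of them, against 6.57% and 6.34% of windows. Matches are letters in a window and are no evidence of binding, and sequence further upstream was not searched. The windows of JUN, FOSL2, FOS and ATF3 lie partly or wholly in sequence that GENCODE 29 places inside the gene. The other 4 are shown, 5′ to 3′ on the gene's strand, because they set the gene that rose most beside its close relative that did not pass (JUNB and JUND) and beside 2 further immediate-early genes; capitals mark the core, the full element, the CArG box and the TATA box on either strand. They span chr19:12791236-12791485 on the plus strand (JUNB), chr19:18281623-18281872 on the minus strand (JUND), chr5:138465229-138465478 on the plus strand (EGR1) and chr19:13150161-13150410 on the plus strand (IER2) of GRCh38.p14.
JUNB: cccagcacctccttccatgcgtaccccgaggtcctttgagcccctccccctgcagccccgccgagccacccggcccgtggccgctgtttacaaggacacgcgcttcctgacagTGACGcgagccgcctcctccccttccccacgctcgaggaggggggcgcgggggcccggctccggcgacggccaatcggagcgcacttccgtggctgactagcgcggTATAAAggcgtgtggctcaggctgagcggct
JUND: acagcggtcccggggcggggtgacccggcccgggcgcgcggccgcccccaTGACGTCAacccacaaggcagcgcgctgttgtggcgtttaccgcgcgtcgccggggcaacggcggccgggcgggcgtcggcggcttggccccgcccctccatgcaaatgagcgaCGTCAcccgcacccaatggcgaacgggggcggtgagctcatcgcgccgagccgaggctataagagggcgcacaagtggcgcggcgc
EGR1: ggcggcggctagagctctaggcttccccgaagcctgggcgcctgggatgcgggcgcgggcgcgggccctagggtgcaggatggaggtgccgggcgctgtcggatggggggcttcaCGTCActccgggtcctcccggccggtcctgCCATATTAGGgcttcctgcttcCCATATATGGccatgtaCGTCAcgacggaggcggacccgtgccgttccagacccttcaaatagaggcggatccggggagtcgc
IER2: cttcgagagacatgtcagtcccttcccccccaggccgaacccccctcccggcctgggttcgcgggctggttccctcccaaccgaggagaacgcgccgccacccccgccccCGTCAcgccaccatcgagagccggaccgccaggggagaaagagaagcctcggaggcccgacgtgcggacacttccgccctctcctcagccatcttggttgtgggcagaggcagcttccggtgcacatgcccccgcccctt

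Compared per length in the authors' FPKM (counts scaled by gene length and library size), the control order was MYC (69.3 ± 8.29, SD, n = 3 here and below), JUND (66.9 ± 15.7), JUNB (48.2 ± 0.679), IER2 (48.2 ± 4.81), FOSL2 (34.9 ± 1.85), FOSL1 (24.5 ± 7.59), JUN (13.4 ± 1.05), EGR1 (11.3 ± 2.50), ATF3 (2.06 ± 0.556) and FOS (1.97 ± 0.259). Neighbours from MYC to IER2 overlapped in their library ranges, as did JUN with EGR1 and ATF3 with FOS. With exosomes JUNB came first at 135 ± 21.3 FPKM, ahead of MYC (109 ± 9.14), JUND (93.1 ± 13.9) and IER2 (85.4 ± 8.97), and these 4 again overlapped neighbour by neighbour. FOSL1 (47.1 ± 3.37) and FOSL2 (43.0 ± 1.73) overlapped, as did JUN (20.8 ± 2.03) and EGR1 (17.4 ± 1.98). FOS (2.96 ± 0.135) lay above ATF3 (1.75 ± 0.0684). FOS, the best known partner of JUN, was therefore at the low end in every library, and the FOS family level came almost wholly from FOSL1 and FOSL2.

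JUNB, on chromosome 19 from 12791496 to 12793315 (GRCh38, GENCODE 29), encodes a JUN subunit that activates transcription more weakly than JUN at many sites. It had 86.5, 88.0 and 88.9 CPM in control libraries 1 to 3 and 280, 253 and 203 CPM in exosome libraries 1 to 3. Controls were tightly grouped, and even the lowest exosome library was far above them. The log2 fold change was 1.40 ± 0.092 (SE; edgeR quasi-likelihood test, adjusted p = 1.93e-10), higher than in 99.2% of tested genes. Corrected, it was 0.81 ± 0.071 (adjusted p = 3.89e-08), a 1.76-fold rise and higher than in 97.8% of genes. JUNB overlaps HOOK2 on the opposite strand, which went from 28.0 ± 2.58 to 52.7 ± 8.72 CPM (log2 fold change 0.83, corrected 0.38). The sources used here do not give the strand setting of the counting, so reads of the 2 genes in the overlap cannot be told apart.

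JUN, on chromosome 1 from 58780788 to 58784327, encodes a strongly activating subunit of AP-1. It had 51.7, 45.2 and 45.3 CPM in control and 81.2, 73.1 and 66.8 CPM with exosomes, without overlap. The log2 fold change was 0.55 ± 0.094 (adjusted p = 5.69e-05 by edgeR; corrected 0.29 ± 0.075, adjusted p = 0.0041), and it passed in all 19 alternatives run. JUND, on chromosome 19 from 18279760 to 18281622, encodes the JUN subunit usually present in resting cells. It had 142, 141 and 90.8 CPM in control and 198, 175 and 147 CPM with exosomes, so that control library 3 lay far below the others and exosome library 3 barely above control libraries 1 and 2. After the TMM scaling of the test, the JUND groups overlapped. Its log2 fold change of 0.39 ± 0.20 (95% confidence interval -0.11 to 0.89) did not pass (adjusted p = 0.163 by edgeR). It passed as higher without control library 3 (log2 fold change 0.22, adjusted p = 0.0409) and passed as lower once corrected (-0.28 ± 0.063, adjusted p = 0.00169). JUND has the highest GC content of the 10 genes, 69.7%, above 99.6% of tested genes. The direction of its change thus depended on the treatment of GC content.

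Within the JUN family the balance moved towards JUNB, and this held with and without the correction. The summed FPKM of the 3 genes was 138, 137 and 110 in control and 283, 254 and 209 with exosomes. JUNB made up 34.3%, 35.4% and 44.2% of it in control and 54.3%, 54.7% and 53.3% with exosomes, a difference of 16.1 percentage points. JUND made up 51.5% ± 6.38 in control and 37.5% ± 0.297 with exosomes, and JUN 10.5% ± 1.13 and 8.42% ± 0.517. No share overlapped between groups, and the exact two-sided permutation test gave p = 0.10 for each, the smallest that 3 against 3 libraries allow. From corrected values per kilobase, the JUNB share was 37.6% ± 4.42 and 54.4% ± 0.481 (16.8 points; exact permutation p = 0.10), while the JUN share was 9.32% ± 0.653 and 9.43% ± 0.191 (exact permutation p = 0.90). Control library 3, with the highest JUNB share of the controls, moved the difference most: without it the difference was 19.3 points.

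**Figure D3:**
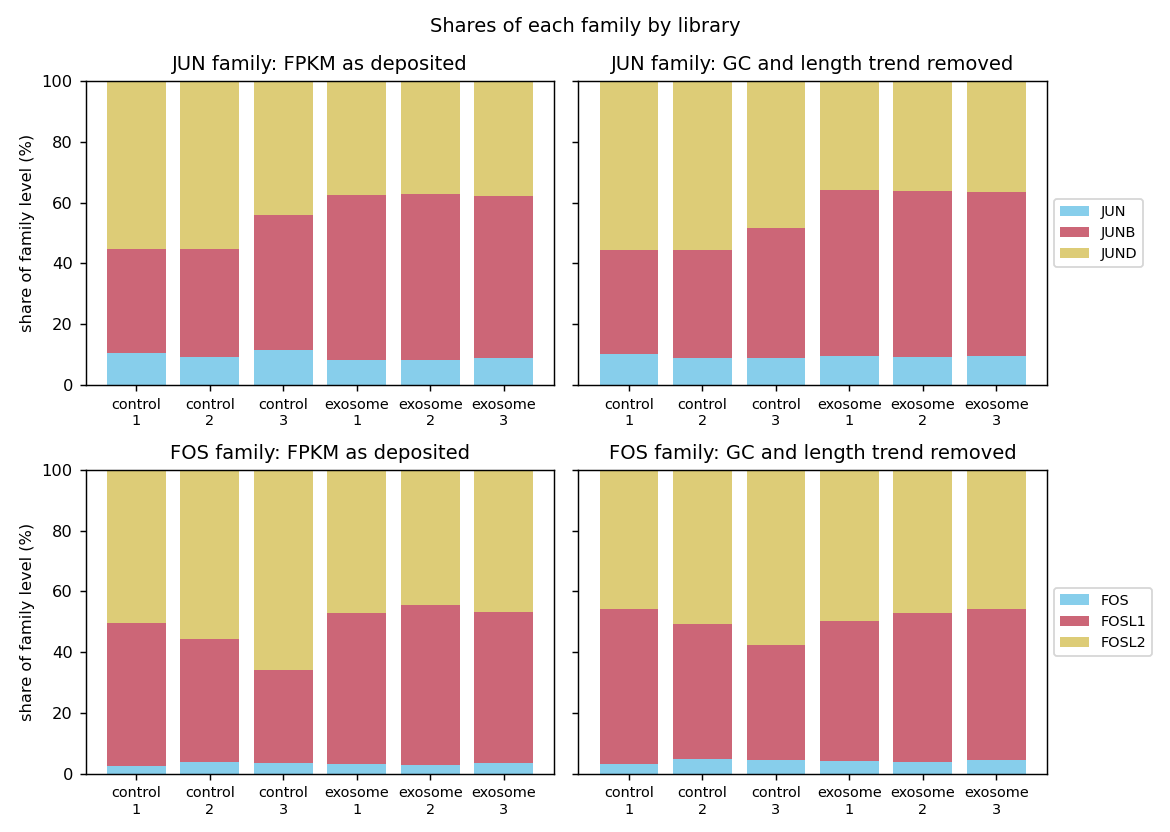
Stacked bars give each gene's percentage of its family's level in each library, from 0 to 100%, from the deposited FPKM (left) and from corrected values per kilobase (right). The JUNB segment is larger in every exosome library than in any control library on both sides, whereas the FOSL1 and FOSL2 segments of the groups overlap on the right.

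FOS, on chromosome 14 from 75278774 to 75282230, encodes the classical rapidly induced partner of JUN. It had 5.11, 6.61 and 5.65 CPM in control and 8.73, 8.28 and 9.07 CPM with exosomes, from only 65 to 121 reads per library. Exosome libraries were all higher, and the log2 fold change of 0.51 ± 0.17 passed (adjusted p = 0.0177 by edgeR). It did not pass without control library 1 (0.44, adjusted p = 0.0694) or corrected (0.28 ± 0.17, adjusted p = 0.199). FOSL1, on chromosome 11 from 65892049 to 65900573, encodes FRA1, a FOS-related subunit linked to tumour cell invasion. Its levels were 59.3, 44.6 and 31.4 CPM in control and 86.9, 92.7 and 80.3 CPM with exosomes. The groups did not overlap, but the controls were much more spread than the exosome libraries. Its log2 fold change of 0.86 ± 0.22 (adjusted p = 0.0194 by edgeR) missed the threshold without control library 2 or exosome library 1, 2 or 3 (0.81 to 0.90, adjusted p = 0.0605 to 0.0985) and when corrected (0.41 ± 0.17, adjusted p = 0.101). Without control library 3 it passed with 0.66, and corrected without that library with 0.24.

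FOSL2, on chromosome 2 from 28392448 to 28417312, encodes FRA2, the other FOS-related subunit. It had 236, 225 and 250.4 CPM in control and 305, 292 and 281 CPM with exosomes, a narrow separation. The log2 fold change was 0.22 ± 0.074 (adjusted p = 0.0167 by edgeR) and hardly moved when corrected (0.20 ± 0.055, adjusted p = 0.00677). The adjusted p was 0.0964 when control library 2 was left out (0.19), 0.0662 when exosome library 1 was (0.20) and 0.0519 when exosome library 2 was (0.23), so that none of these passed, nor did the value with GC content alone removed (0.052, adjusted p = 0.560). FOSL2 has an antisense and an intronic gene within its span. In FOS family shares, FOSL1 went from 39.4% ± 8.26 to 50.6% ± 1.62 of FPKM and FOSL2 from 57.4% ± 7.89 to 46.3% ± 1.40 (exact permutation p = 0.10 each). From corrected values FOSL1 made up 44.4% ± 6.74 and 48.4% ± 1.86, and the ranges overlapped (exact permutation p = 0.50).

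ATF3, on chromosome 1 from 212565334 to 212620777, encodes a stress-induced factor that often represses its targets. It had 3.62, 5.90 and 6.19 CPM in control and 4.25, 4.53 and 4.57 CPM with exosomes, from 46 to 80 reads. The exosome libraries lay inside the control range. The log2 fold change was -0.31 ± 0.22 (95% confidence interval -0.77 to 0.15, adjusted p = 0.248 by edgeR; corrected -0.36, adjusted p = 0.213), and it passed in none of the 19 alternatives. It was -0.51 without control library 1 (adjusted p = 0.0621 by edgeR) and -0.16 without control library 3 (adjusted p = 0.615). ATF3 has the lowest GC content of the 10 genes, 46.7%.

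EGR1, on chromosome 5 from 138465490 to 138469315, encodes a zinc finger factor induced by MAP kinase signalling; it is the gene with CArG box letters in the window printed above. It had 41.2, 38.7 and 26.5 CPM in control and 54.5, 60.8 and 48.4 CPM with exosomes. Library 3 was the lowest of each group, and the groups did not overlap. Its log2 fold change of 0.54 ± 0.14 passed (adjusted p = 0.00577 by edgeR). It was 0.37 without control library 3, where it still passed, and did not pass when corrected (0.29 ± 0.12, adjusted p = 0.0891) or corrected without that library (0.12, adjusted p = 0.251). IER2, on chromosome 19 from 13150415 to 13154908, encodes a nuclear protein induced by growth factors. Its CPM was 153, 160 and 131 in control and 283, 273 and 231 with exosomes. Every exosome library was well above every control, and the log2 fold change of 0.74 ± 0.088 (adjusted p = 1.08e-06 by edgeR) was 0.34 ± 0.059 when corrected (adjusted p = 0.000148). IER2 overlaps an antisense gene.

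MYC, on chromosome 8 from 127735434 to 127741434, encodes a factor that raises ribosome and cell cycle gene expression. It had 229, 214 and 180 CPM in control and 347, 341 and 297 CPM with exosomes. The lowest exosome library exceeded the highest control. The log2 fold change was 0.57 ± 0.089 (adjusted p = 2.02e-05 by edgeR; corrected 0.32 ± 0.065, adjusted p = 0.000774), a rise of 1.49-fold or, corrected, 1.24-fold. MYC, JUN, JUNB and IER2 passed as higher in all 19 alternatives, the corrected ones included, with MYC between 0.25 and 0.67 and JUNB between 0.81 and 1.52.

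**Figure D4:**
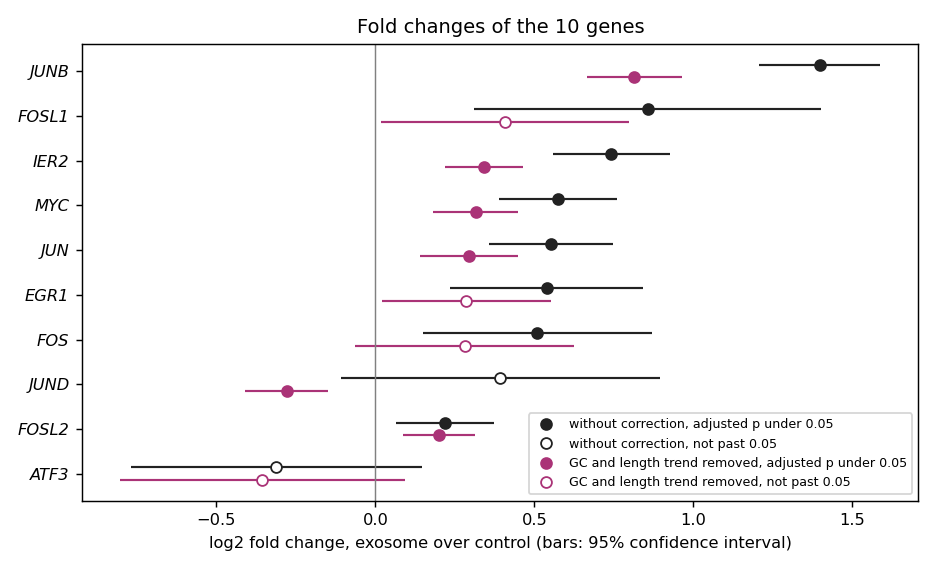
Points give the log2 fold change of exosome over control with its 95% confidence interval, without correction (black) and corrected (purple), and filled points passed an adjusted p of 0.05. JUNB, IER2, MYC, JUN and FOSL2 are filled in both, FOSL1, EGR1 and FOS in black only, and JUND in purple only, on the other side of 0.

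Other genes of these pathways moved in both directions. Their counts, here and in the next 3 paragraphs, stand beside 25.6% higher and 26.1% lower over all tested genes (corrected 18.2% and 17.3%). Of 9 tested AP-1 family relatives, 4 rose and 3 fell (median log2 fold change 0.37; corrected 1 and 3). The count of rises was 2 without control library 3 or exosome library 1, and 1 without exosome library 2. ATF2, a JUN partner at cyclic AMP elements, fell from 153 ± 2.14 to 113 ± 9.92 CPM (-0.52, corrected -0.19, both past the threshold), and its close relative ATF7 fell by 0.43 on the log2 scale (corrected -0.29). JDP2, a repressor that dimerises with JUN, fell from 9.87 ± 0.973 to 6.71 ± 1.25 CPM (-0.64, corrected -0.64). MAFF, a small MAF protein, rose by 0.56 without correction only (0.17 corrected, adjusted p = 0.416 by edgeR). The other rises, named here after their values were seen as are the further genes closing the next 3 paragraphs, were BATF3 (0.61 to 1.57 CPM on average, log2 fold change 1.30, corrected 1.32), the only relative higher in both, and BATF2 (0.45) and MAFG (0.32), which did not pass when corrected. BATF3 had only 0.786, 0.881 and 0.155 CPM in control libraries 1 to 3. Corrected without control library 3, 0 relatives passed as higher. FOSB, MAF and MAFA were among those too low to test.

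Of 27 tested other immediate-early genes, 6 rose and 4 fell (median 0.037; corrected 7 and 6, median -0.035). ZFP36, which encodes a protein that destabilises AU-rich messages, rose by 1.56 on the log2 scale (corrected 1.18), with 6.22 ± 2.17 CPM in control and 19.4 ± 3.95 with exosomes. IER5, a relative of IER2, rose from 47.0 ± 1.97 to 98.9 ± 17.5 CPM (0.99, corrected 0.95), and GADD45B, a stress-response gene, from 18.5 ± 1.63 to 35.0 ± 6.13 CPM (0.83, corrected 0.40). CYR61, a secreted matrix protein under serum response factor and YAP, fell from 79.0 ± 4.63 to 44.9 ± 8.64 CPM (-0.90, corrected -1.06), and RHOB, a small GTPase, fell by 0.48 on the log2 scale (corrected -0.84). These 5 passed with and without correction. So did rises of IER5L (1.09, corrected 0.60), PPP1R15A (0.85, corrected 0.46) and NFKBIZ (0.40, corrected 0.46), and falls of DUSP1, a MAP kinase phosphatase (-0.57, corrected -0.89), and KLF6 (-0.40, corrected -0.29).

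Among 21 tested kinases and factors upstream, 7 rose and 6 fell (corrected 4 and 3). MAPK8, the JUN kinase JNK1, fell from 71.2 ± 2.14 to 48.8 ± 0.981 CPM (-0.63, corrected -0.23). MAPK3, the kinase ERK1, rose by 0.63 without correction and did not pass with it (0.21), nor did RPS6KA4, the kinase MSK2 (0.56, corrected 0.094). Transcript levels say nothing of kinase activity. Of 15 tested AP-1 targets, 4 rose and 3 fell (corrected 3 and 5). VEGFA, an angiogenic growth factor, rose from 69.3 ± 5.66 to 140 ± 16.2 CPM (0.93, corrected 1.07) and the cytokine LIF by 0.59 (corrected 0.35), while HMOX1, heme oxygenase, rose by 0.53 only without correction (corrected 0.13, adjusted p = 0.158 by edgeR). HBEGF, an EGF receptor ligand, fell from 16.6 ± 0.686 to 10.2 ± 1.54 CPM (-0.78, corrected -0.95), and cyclin D1 (CCND1) from 317 ± 38.8 to 255 ± 10.3 CPM (-0.40, corrected -0.44). TIMP1, a metalloproteinase inhibitor, passed as higher without correction (0.22) and as lower with it (-0.25), and CD44, an adhesion receptor, fell without correction only (-0.20).

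In the MYC and MAX network, 5 of 13 tested genes rose and 3 fell (corrected 3 and 0). Among MAX partners that oppose MYC, MXD3 had 4.28 ± 1.28 and 13.0 ± 3.19 CPM (1.51, corrected 1.06, on the log2 scale) and MNT 36.0 ± 7.70 and 60.0 ± 3.54 CPM (0.66, corrected 0.38), both past the threshold, whereas MXD1 (-0.17), MXI1 (-0.10) and MXD4 (0.14) did not pass. MGA, another MAX partner, and MYCBP2 fell by 0.55 and 0.38 on the log2 scale, and neither passed when corrected (-0.084 and 0.066). MAX itself rose by 0.36 (corrected 0.22, past the threshold), whereas rises of ZBTB17 (0.57) and MLX (0.32) and the fall of MYCBP (-0.36) were lost with the correction. Of 29 tested MYC targets, 15 rose and 4 fell (median 0.21; corrected 6 and 3, median 0.078). The ribosome assembly genes NOP16 (0.97, corrected 0.62) and NOP56 (0.63, corrected 0.50) and the cell cycle kinase CDK4 (0.72, corrected 0.46) rose in both fits, and BOP1, also of ribosome assembly, without correction only (0.67, corrected 0.12). The 3 that passed as lower when corrected were HSPE1 (-0.31, corrected -0.60), ODC1 (0.0075, corrected -0.15) and SRM. SRM passed as higher without correction (0.37, corrected -0.23), whereas HSPE1 and ODC1 did not pass there. The translation factor EIF4E (-0.39, corrected 0.11) and the helicase DDX18 (-0.25, corrected 0.066) fell without correction only, as did LDHA (-0.21) and WDR43 (-0.21). The count of falls was 2 without control library 1, and 1 without control library 2, exosome library 1 or exosome library 2, or with library totals in place of TMM factors. Of 9 tested genes of JUN and MYC protein turnover, 2 rose and 2 fell (corrected 3 and 0), with 1 rise without exosome library 1. The pseudokinase TRIB2 rose from 32.4 ± 1.73 to 43.7 ± 4.51 CPM (0.35, corrected 0.30). The ubiquitin ligases ITCH (-0.47, corrected -0.10) and HUWE1 (-0.29, corrected -0.0079) fell without correction only.

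**Figure D5:**
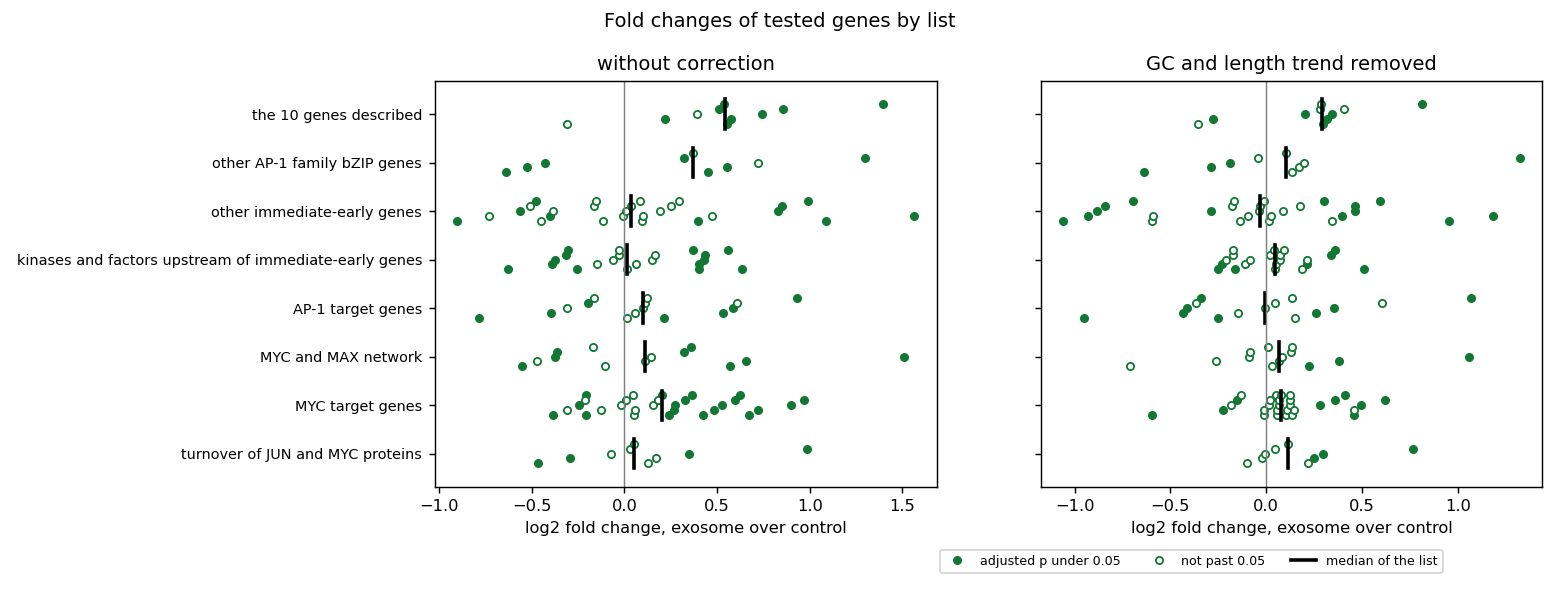
Each point is the log2 fold change of 1 tested gene, by list, without correction (left) and corrected (right), filled where the adjusted p is under 0.05, with the list's median as a black bar. The median of the 10 genes is 0.55 on the left and 0.29 on the right, and the points of each pathway list plotted lie on both sides of 0, as do those of the 10 genes.

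Over the 6 libraries, the genes whose log2 level was most like that of JUNB were IL4R, CDCA4, GLMP, UBA7 and SEMA4B. Each had a Pearson correlation of 0.999 with JUNB (log2 of CPM plus 1, genes averaging at least 1 CPM). IL4R encodes an interleukin receptor chain, UBA7 an enzyme that activates ISG15, and SEMA4B a semaphorin. The 6 points fall into the 2 groups compared, so the likeness mostly repeats the group difference. IL4R went from 68.2 ± 1.40 to 121 ± 10.9 CPM and SEMA4B from 144 ± 3.00 to 267 ± 20.2 CPM, with exosome library 3 the lowest exosome library in both, as in JUNB.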

How the data were processed

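RNA of 6 SK-MES-1 cultures was isolated with Trizol, and libraries were built with a NEBNext Ultra kit, per the labels' protocols. Alignment with STAR to GRCh38 is named by the submitters' processing notes; the sources used here name no counting tool, annotation or strand setting. The deposited table holds the authors' read counts, used for every test, and their FPKM, used to compare levels between genes. Their signal (counts over 1 size factor per library), log2 fold changes and p-values in the same deposited table were not used for results.

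The test was edgeR's quasi-likelihood test (version 4.0.16, R 4.3.3; robust fit on group) after filterByExpr and TMM scaling, with Benjamini-Hochberg adjustment over 12449 genes and a threshold of 0.05. Standard errors were taken from the fold change and its F statistic. One unit of CPM, a count scaled to the library total, stands for 11.3 to 13.3 reads. For corrected values, each library's log2 CPM deviation was smoothed on GC content and log2 length of the longest GENCODE 29 transcript (loess, span 0.3, all 12449 genes) and entered edgeR as an offset; the trend may hold biology as well as bias. The scripts were tested on simulated data. Promoter windows came from RefSeq.

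The members, lists and rule for named genes were chosen with earlier results of these data known. The rule takes the 10 members, from each list the 4 genes of lowest adjusted p, up to 2 called genes against their list's majority, and the 5 genes most like JUNB; some genes it takes are not reported here. Of 198 list entries, 179 matched the table. Replicate numbers from the titles were used as a block only as an alternative. Other alternatives were RLE factors, library totals, other filters, DESeq2 1.42.0, limma-voom (limma 3.58.1), a threshold of 0.01 and leaving out each library.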

Additional observations from a re-analysis of the deposited data

How the results depend on the processing

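Of 190 member fold changes under alternatives, 160 kept direction and side of the threshold, 22 no longer passed, 4 passed anew and 4, all of JUND, turned: -0.28 (GC and length removed), -0.28 (the same with the replicate block), -0.23 (GC alone removed) and -0.34 (GC and length removed without control library 3). JUND passed as higher with limma-voom (0.42), the replicate block (0.41), without control library 3 (0.22) and without library 3 of both groups (0.31). Of the 10 genes, 8 were higher without correction, 5 with GC and length removed, 4 with GC alone removed and 5 at a threshold of 0.01, and 6 to 9 when 1 library was left out. With no correction 0 were lower, and 1 (JUND) was lower in each of the 4 corrected fits. Genes called higher in the whole table were 3190 without correction, 2263 with GC and length removed, 2134 with GC alone removed and 2354 at 0.01. They were 2503 to 3234 when 1 library was left out. Genes called lower in the whole table went from 3244 to 2148 corrected and 2044 corrected without control library 3. With library totals, 3811 genes were higher and 2495 lower against 3190 and 3244, and 8 of the 10 were still higher. The JUNB share difference was 14.3 to 19.3 points when 1 library was left out. Counts of the lists stayed within 1.5 times in 226 of 266 cases. The cause of these changes was not tested.

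Same-numbered control and exosome libraries deviated together with correlations of 0.066, 0.103 and 0.206, so the numbers were not taken as pairs, although each library correlated best with its own number. With the replicate block, 9 of the 10 genes were higher (3444 genes in all were higher and 3525 lower), and with the block and the correction together 6 were higher and 1 lower, EGR1 passing there at 0.30. The alternatives without library 3 of both groups, with GC alone removed, and with the correction without control library 3 were chosen after seeing the data, as was the comparison of family shares with its alternatives. FOS and ATF3 rest on 46 to 121 reads per library, which limits the changes that could be detected.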
